A study of Mus musculus with 70 samples.

Results

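Translation initiation and elongation factors were taken from the deposited expression table as the genes whose symbol begins with Eif or Eef followed by a digit, without pseudogenes and without the Eif2ak kinases, that averaged at least 1 RPKM over the 70 libraries. RPKM is reads per kilobase of the coding length given for the gene and per 1000000 reads. The rule kept 57 genes of 43346 in the table. Of 60 such genes in all, 3 fell under the threshold. Eif2b3 averaged 0.707 RPKM, and Eif4e1b and Eif2c5 averaged under 0.01 RPKM, whereas the weakest genes kept were Eif2b4 at 1.55 and Eif3j2 at 1.62 RPKM.

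All libraries came from the forebrain of RiboTag mice, double heterozygous Cx3cr1CreERT2-IRES-eYFP/+; Rpl22HA/+, so that control mice carried both alleles as well. Cre driven from the Cx3cr1 locus and switched on by tamoxifen, given on 3 consecutive days and followed by a week of rest, tags the ribosomal protein RPL22 with an HA epitope. Cx3cr1 is also active in some other macrophages, and the pulldown collects RNA on tagged ribosomes from whole tissue. In the LPS study there were RiboTag pulldowns 24 hours after an intraperitoneal LPS challenge (n = 3, replicates 1, 3 and 4) and after saline (n = 4). The same study had cells sorted as 7AAD-negative, CD11b-positive and CD45 low or intermediate after collagenase digestion, from LPS (n = 3) and saline mice (n = 3), and the bulk input (n = 4), whose titles carry the saline letter. The Poly(I:C) study had pulldowns 24 hours after Poly(I:C), which mimics viral double-stranded RNA (n = 3), and after its own saline (n = 3). Pulldowns at 9 to 10 months came from APP/PS1 mice, an amyloid model (n = 5), and their controls (n = 5), and from mice given rAAV1-TauP301L, a mutant human tau (n = 5), or rAAV1-GFP (n = 5). The ageing study had pulldowns of females at 3, 12 and 24 months (n = 5, 5 and 4) and of males at 3, 12 and 24 months (n = 5, 4 and 4). Sex is not labelled outside the ageing study. Every library outside it held the Y-linked Eif2s3y, from 0.532 RPKM in LPS sorted cells to 31.3 RPKM in a saline pulldown of the LPS study. Females of the ageing study had at most 0.0215 RPKM. The part of a different mix of sexes in differences of Eif2s3y or the X-linked Eif2s3x between those unlabelled groups was not tested.

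Translation of most mRNAs begins when eIF4E binds the 5′ cap and, with the scaffold eIF4G and the helicase eIF4A, unwinds the leader. The small ribosomal subunit, held by eIF3 and carrying eIF2 with the initiator tRNA, then scans to a start codon under the control of eIF1 and eIF1A. eIF5 and eIF5B end initiation, eIF2B recharges eIF2, and eEF1A and eEF2 then drive elongation by delivering aminoacyl-tRNA and by moving the ribosome along the codons. Phosphorylated eIF2 slows initiation in the integrated stress response, and the kinase complex mTORC1 frees eIF4E from its binding proteins, the 4E-BPs. mRNAs of ribosomal proteins and of several elongation factors start with a pyrimidine run, the terminal oligopyrimidine tract, through which mTORC1 controls their translation.

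Start sites of the family were read from RefSeq promoter sequences on GRCm38.p6, which matched 45 of the 57 genes by symbol. The window taken reached from 10 bases before to 20 bases after each annotated start, on the strand of the gene, and was searched for a run of at least 8 bases that were C or T. Such a run stood in 8 of the 45 windows, or 17.8%, against 3693 of 32851 windows of all genes, or 11.2%. For each factor only the start nearest the gene boundary was counted, whereas the 32851 windows cover all annotated starts. These shares therefore rest on unlike units. The longest runs were in Eif2s3x at 16 bases, Eif3f at 15, Eif2b5 at 14 and Eif2s3y at 12, and Eef1a1 and Eif3l had 10 each. The windows below are shown because their genes carry the inflammation and ageing results, with the longest pyrimidine run in capitals. They are Eif3f (chr7:108934405-108934434, plus strand), Eif3l (chr15:79075213-79075242, plus strand), Eef2 (chr10:81176621-81176650, plus strand), Eif5a (chr11:69921939-69921968, minus strand) and Eif4a1 (chr11:69672404-69672433, minus strand).
Eif3f: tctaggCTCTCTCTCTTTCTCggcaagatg
Eif3l: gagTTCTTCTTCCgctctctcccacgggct
Eef2: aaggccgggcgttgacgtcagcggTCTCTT
Eif5a: ccgaagccgggatggttgtaaTCCgaccac
Eif4a1: gtaacgTCacgtcgagttgcagagcgccgg

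The run in Eif3f covered 15 bases and that in Eif3l 10, whereas the longest run was 6 bases in Eef2, 3 in Eif5a and 2 in Eif4a1. The run in Eef2 stood at the edge of the window, and followed past it reached 8 bases, as that in Eif2b5 reached 21. That in Eif3k, 7 bases within the window and so not counted, reached 11. The annotated start used for Eef1a1 lay 7427 bases from the deposited gene boundary. A run depends on the annotated start, and these windows carry no measurement of where transcription began.

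The 57 genes spanned a wide range of levels. Eef1a1 (ENSMUSG00000037742, chromosome 9, 78478449 to 78489151, mm10), which delivers aminoacyl-tRNA to the ribosome, was highest with a mean of 91.0 RPKM over the 70 libraries. Eif4g2 (chromosome 7, 111070568 to 111083030), a scaffold related to eIF4G that does not bind eIF4E, had 73.4 RPKM. Eef2 (chromosome 10, 81176631 to 81182507), the translocase, had 41.6 RPKM, Eif5, which makes eIF2 hydrolyse its GTP, 24.4, and the helicase cofactor gene Eif4h 20.3. The 14 eIF3 genes ranged from 1.62 RPKM for Eif3j2 to 18.3 for Eif3a, and the 4 eIF2B genes from 1.55 to 2.83. Across the 60 RiboTag libraries the scaffold gene Eif4g3 varied least, with an SD of 6.94% of its mean, and 3 more genes stayed under 15%, Eif3j1, Eif4g2 and Eif2d. The Y-linked Eif2s3y varied most at 99.6%, followed by the helicase gene Eif4a1 at 71.9%, Eef1e1 and Eif3i at 56.5% each and Eif3g at 55.5%. Several of these genes, Eef1a1, Eif4a1 and Eif5a among them, have processed pseudogenes, and Eif1a and Eif1ax as well as Eif3j1 and Eif3j2 are near-identical pairs, so their reads may be shared and their single levels are uncertain. Another gene of at least 1 RPKM overlaps 20 of the 57, and the sources used here do not say whether reads were counted by strand.

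Reads in genes ranged from 20.5 to 47.2 (in units of 1000000) per library, and the family took 0.445% to 0.832% of them in the pulldowns. In the LPS pulldowns the share was 0.832%, 0.778% and 0.823%, against 0.623%, 0.675%, 0.513% and 0.530% in saline pulldowns, with no overlap. Poly(I:C) pulldowns had 0.539%, 0.494% and 0.556%, against 0.450%, 0.446% and 0.445% after saline, also with no overlap. The mean share was 0.518% in APP/PS1 mice against 0.524% in their controls, and 0.483% in TauP301L mice against 0.478% with GFP. It was 0.488%, 0.492% and 0.524% in females at 3, 12 and 24 months and 0.475%, 0.480% and 0.513% in males. RPKM divides by more reads than those in genes. Reads in genes made up 26.5% to 29.4% of that divisor in the input. They made up 36.1% to 42.7% in saline pulldowns of the LPS study and 41.7% to 47.8% in LPS pulldowns. The part of this in the RPKM differences was not tested.

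The pulldowns carried microglial RNA at levels that differed between libraries. Summed over 12 microglial markers, saline pulldowns of the LPS study had 722 to 2179 RPKM and the input 23.4 to 27.6, and all 12 markers were higher in the pulldown. Summed over 12 neuronal markers, pulldowns kept 182 to 264 RPKM against 520 to 606 in the input, so that neuronal RNA was reduced but not absent. Within saline, pulldown replicates 3 and 4 stood apart, with 722 and 791 RPKM of microglial markers against 1864 and 2179 in replicates 1 and 2. Sorted libraries had 3271 to 4738 RPKM of microglial markers and at most 2.74 of neuronal ones. They also held 5536 to 49148 RPKM of monocyte and neutrophil markers, against 5.36 to 24.0 in the pulldowns of that study. In a pulldown, more RNA per cell, more tagged cells and a larger share of tagged ribosomes in the precipitate cannot be told apart.

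After LPS, 26 of the 57 factors rose in the pulldown and none fell, as called by limma at an adjusted p under 0.05. Of all 13989 genes tested, 12.3% were called, 12% as higher. The median log2 fold change of log2(RPKM + 1) was 0.71 over the family against 0.11 over all genes, and scaling by the median of ratios, which moved the median of all genes to -0.01, left that of the family at 0.58. In 44 of the 57 genes every LPS library lay above every saline library, which held for 22.2% of all genes. The calls took in 9 of 14 eIF3 genes, 4 of 7 elongation genes and 5 of 11 genes for cap binding, helicase and scaffold. Also called were 4 of 13 for start codon selection and 2 of 4 of eIF2B. Of the eIF5A and eIF6 group 1 of 3 was called, and of the cap-binding regulators 1 of 4. These role groups were set by gene symbol and are broad. The start codon group also holds Eif1ad, Eif2a and Eif2d, and the elongation group Eef1e1.

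The highest change was that of Eif5a (ENSMUSG00000078812, chromosome 11, 69916714 to 69921958), whose hypusine-modified protein keeps ribosomes moving through difficult stretches. It stood at 21.6, 30.1 and 35.8 RPKM in LPS pulldowns, against 8.08, 7.97, 4.93 and 4.92 in saline pulldowns, a log2 fold change of 2.02 ± 0.24 (SE, limma adjusted p = 0.00367). The groups did not overlap. The start window of Eif5a, shown above, held no pyrimidine run longer than 3 bases.

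Among eIF3 subunits, which hold the small ribosomal subunit, Eif3g had 23.9, 24.7 and 29.6 RPKM in LPS pulldowns, against 10.9, 10.6, 6.603 and 7.01 in saline pulldowns (1.49 ± 0.21, adjusted p = 0.00543). Eif3k changed by 1.48 ± 0.27 (adjusted p = 0.0104), Eif3i by 1.42 ± 0.19 (0.00472) and Eif3l by 1.39 ± 0.22 (0.00743). All 14 eIF3 genes had every LPS library above every saline library, although 5 of them did not pass the test, and the lowest change called among them was Eif3j1 at 0.56 ± 0.14. Saline replicates 3 and 4, with less RNA of microglial markers, were also the lower ones for Eif3g.

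The helicase gene Eif4a1 (ENSMUSG00000059796, chromosome 11, 69666936 to 69672423) averaged 17.6 ± 1.89 RPKM in LPS pulldowns (SD, n = 3) and 5.79 ± 1.74 in saline pulldowns (n = 4), a change of 1.49 ± 0.21 (adjusted p = 0.00543). Its close paralogue Eif4a2 averaged 22.8 RPKM after LPS and 28.6 after saline and did not pass the test (-0.32, adjusted p = 0.369). Eif4e, the cap-binding protein itself, had 17.7, 15.01 and 16.4 RPKM after LPS, against 10.3, 12.4, 7.84 and 9.61 after saline (0.67 ± 0.18, adjusted p = 0.0421), a call that held under 3 of 15 alternatives. Of its inhibitors only Eif4ebp1 was called, at 3.38, 3.91 and 5.04 RPKM after LPS against 1.55, 2.82, 1.49 and 0.950 after saline (0.95 ± 0.22, adjusted p = 0.0251, called under 8 of 14 alternatives). The lowest change called in the family was Eif4e2, a cap-binding homologue that represses translation, at 0.43 ± 0.11 (adjusted p = 0.0407). Eif4g1, the main scaffold, rose by 0.74 ± 0.13 (adjusted p = 0.00981).

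The ternary complex gene Eif2s1, which encodes the eIF2 subunit phosphorylated in stress, had 16.8, 14.7 and 16.9 RPKM after LPS, against 7.19, 8.31, 5.58 and 5.14 after saline (1.20 ± 0.18, adjusted p = 0.00645). The beta subunit gene Eif2s2 rose by 0.71 ± 0.14 (0.0129) and the X-linked gamma subunit gene Eif2s3x by 0.95 ± 0.19 (0.0157), whereas its Y-linked copy Eif2s3y had -0.45 ± 0.25 (adjusted p = 0.292), both in mice whose sex is not labelled. For eIF2B, the exchange factor, Eif2b2 changed by 0.64 ± 0.15 (called under 7 of 14 alternatives) and Eif2b4 by 0.50 ± 0.12. Eif1ax, a scanning factor, was not called at 0.23 ± 0.16 (adjusted p = 0.41).

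Of the elongation genes, Eef1g, a subunit of the exchange factor eEF1B, averaged 42.3 ± 9.07 RPKM in LPS pulldowns and 14.6 ± 4.44 in saline pulldowns (1.499 ± 0.259, adjusted p = 0.00933). Eef1d, another eEF1B subunit, rose by 0.85 ± 0.12 (0.00499). Eef1a1 had 215, 204 and 244 RPKM after LPS, against 123, 161, 59.2 and 67.05 after saline. The groups did not overlap, but the saline libraries fell into a higher and a lower pair, and the gene was not called (1.22 ± 0.37, adjusted p = 0.0686). Eef2 likewise missed the threshold at 0.89 ± 0.28 (adjusted p = 0.0689). Eef1a2, the isoform of neurons and muscle, had 2.60, 3.52 and 2.24 RPKM after LPS and 2.85, 2.67, 2.48 and 3.05 after saline, with the groups overlapping (adjusted p = 0.998).

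Of the other lists, those of ribosomal proteins and of the integrated stress response had the largest shares of higher genes. Among ribosomal protein genes, listed by name, 77 of 81 were higher after LPS with a median of 1.46. The integrated stress response list had 6 of 14 higher, led by the serine and glycine synthesis genes Shmt2, at 7.96 ± 1.24 RPKM against 1.34 ± 0.355 after saline (1.94 ± 0.16, adjusted p = 0.000733), Psat1 at 1.71 ± 0.17 and Phgdh at 1.57 ± 0.25. Of 19 genes of mTORC1 and the cap kinases only Lamtor2 was higher (0.96 ± 0.18), and of 10 for termination and recycling 2, the release factor gene Etf1 and Denr. Of 11 genes for poly(A) binding and initiation repressors Pabpc4 and Dhx29 were higher, of 8 mitochondrial factors Tufm, the mitochondrial counterpart of eEF1A, and of 7 hypusine and diphthamide enzymes none. Of those 7 by limma, 2 had an unadjusted p under 0.05.

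Summed microglial markers were 1797, 2475 and 2134 RPKM in LPS pulldowns, against 1864, 2179, 722 and 791 in saline pulldowns. They overlapped between the groups, and 2 of 12 were called higher. Fitted jointly with the sorted libraries, 3 factors were called in place of 26, and 16 with no filter on low values. Without saline replicates 3 and 4 together, 17 were called. Leaving out single libraries moved the count in both directions. It gave 16 calls without saline replicate 3, 10 without LPS replicate 3 and 8 without LPS replicate 4, and could also raise the count above 26. Eif5a and Eif4a1 were called under each of 15 alternatives.

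**Figure D1:**
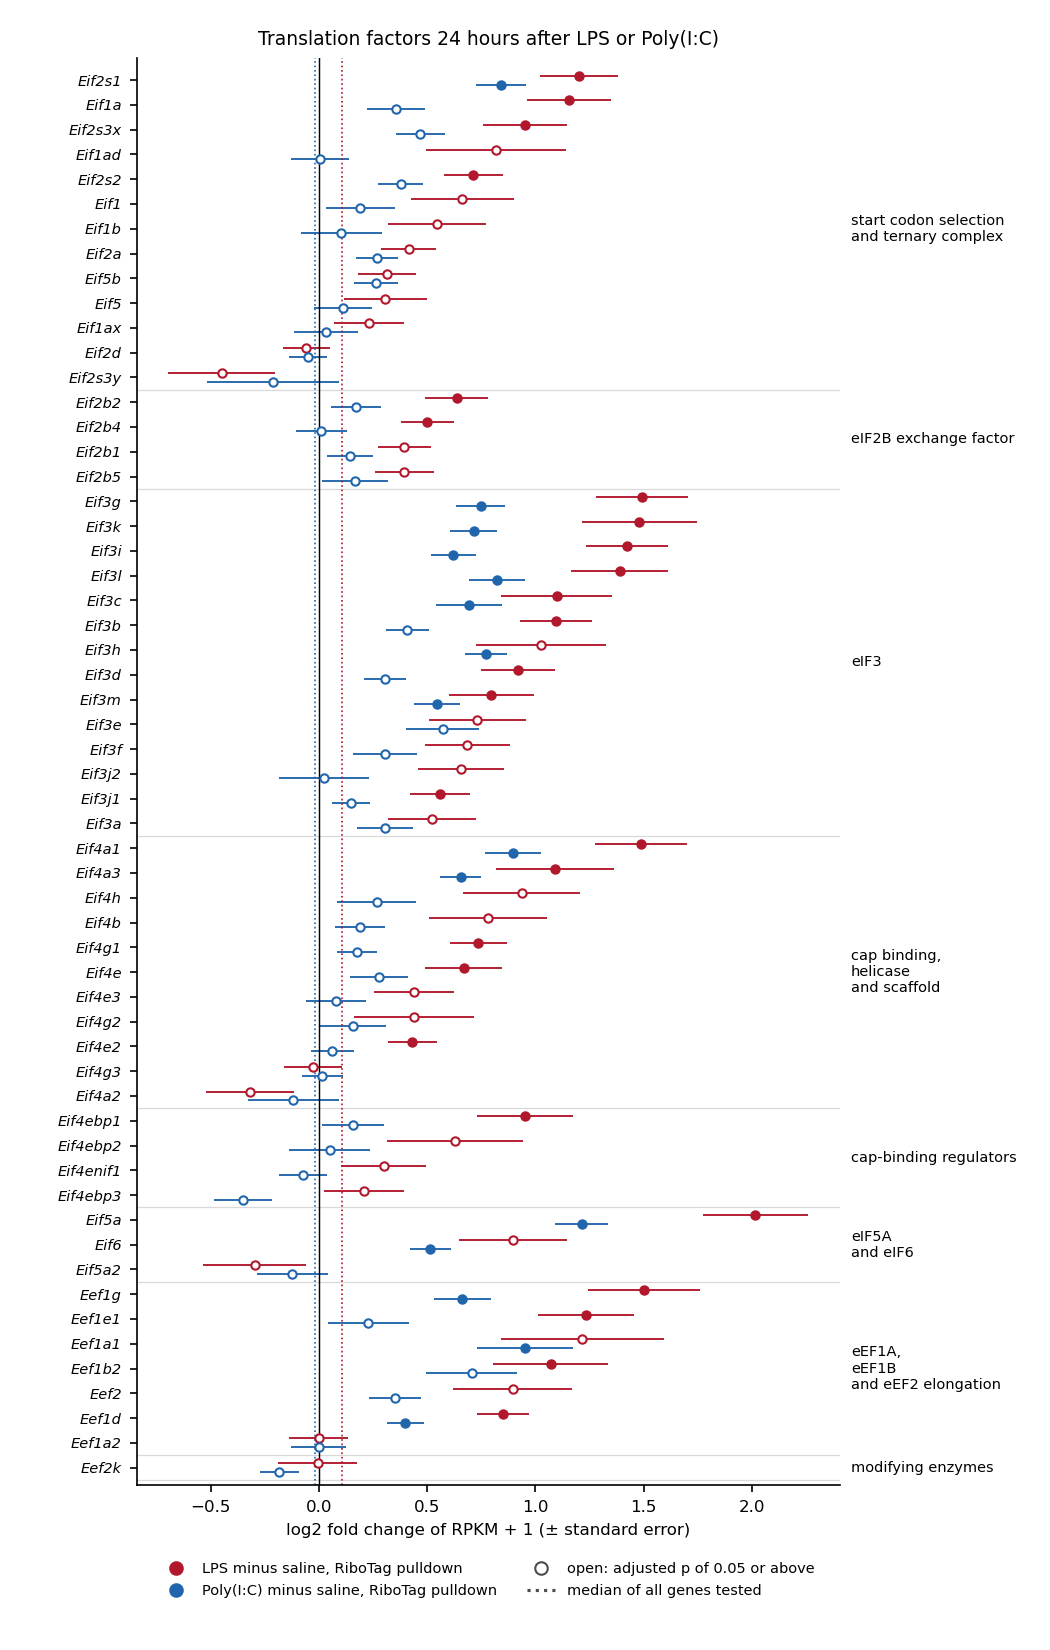
Log2 fold change of RPKM + 1 (x axis, ± standard error) for each of the 57 factors, grouped by role, 24 hours after LPS (red) or Poly(I:C) (blue) against saline in RiboTag pulldowns. Filled points had an adjusted p under 0.05, dotted lines mark the median of all genes, and Eif5a lies farthest right for both at 2.02 and 1.21.

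In sorted cells none of the 55 factors tested passed the threshold after LPS by limma, 15 had an unadjusted p under 0.05, and 0.627% of all genes were called. limma voom on recovered reads also called none. The median change was 0.77 over the family against 0.25 over all genes, and 21 factors had every LPS library above every saline library, which held for 14.9% of all genes. Eif5a had 29.95, 20.5 and 35.7 RPKM in LPS sorted cells, against 3.67, 6.31 and 7.62 in saline sorted cells (2.12 ± 0.44, adjusted p = 0.0802). The groups did not overlap. Eef1g had 45.7, 55.5 and 43.0 RPKM after LPS, against 10.1, 13.2 and 18.8 after saline (1.74 ± 0.37, adjusted p = 0.0847).

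The largest fold change in sorted cells was in Eif3l, with 24.4, 18.2 and 48.6 RPKM after LPS and 15.3, 4.10 and 1.73 after saline (2.24 ± 0.67, adjusted p = 0.208). Its saline libraries were as far apart from each other as from some LPS libraries. Eef2 had 1.33 ± 0.47 (adjusted p = 0.29), Eef1a1 0.94 ± 0.26 (0.175) and Eif4ebp1 0.80 ± 0.81 (0.719). Eif2s3x had 0.90 ± 0.53 (0.547), Eif1ax 1.37 ± 0.62 (0.416), Eif2s3y -0.17 ± 0.82 (0.951) and Eif4e, with wide overlap, a change near 0 with a standard error of 0.79. Eef1a2 was under the filter, at 0 to 0.0245 RPKM in all 6 sorted libraries. Ribosomal protein genes were higher for 2 of 81, with a median of 1.11. Summed monocyte and neutrophil markers were 12568, 49148 and 16704 RPKM in LPS sorted cells and 5536, 18430 and 10665 in saline sorted cells, and their part in these values was not tested. When sorted and pulldown libraries shared one estimate of the spread, 15 factors were called higher and 1 lower in sorted cells, and 3 in the pulldowns.

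The LPS effect by pulldown minus that in sorted cells passed for 0 of 57 factors by limma and by limma voom, and 6 had an unadjusted limma p under 0.05. Of all genes 0.259% were called. For Eif5a the difference was -0.11 ± 0.44, for Eef1a1 0.28 ± 0.47, for Eef2 -0.44 ± 0.59, for Eif4e 0.67 ± 0.86 and for Eif1ax -1.14 ± 0.44. Without LPS sorted replicate 2 it passed for 1 factor. The largest was Eif3k at 1.71 ± 0.86 (adjusted p = 0.607). With standard errors of this size, moderate differences between the methods could not be detected.

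**Figure D2:**
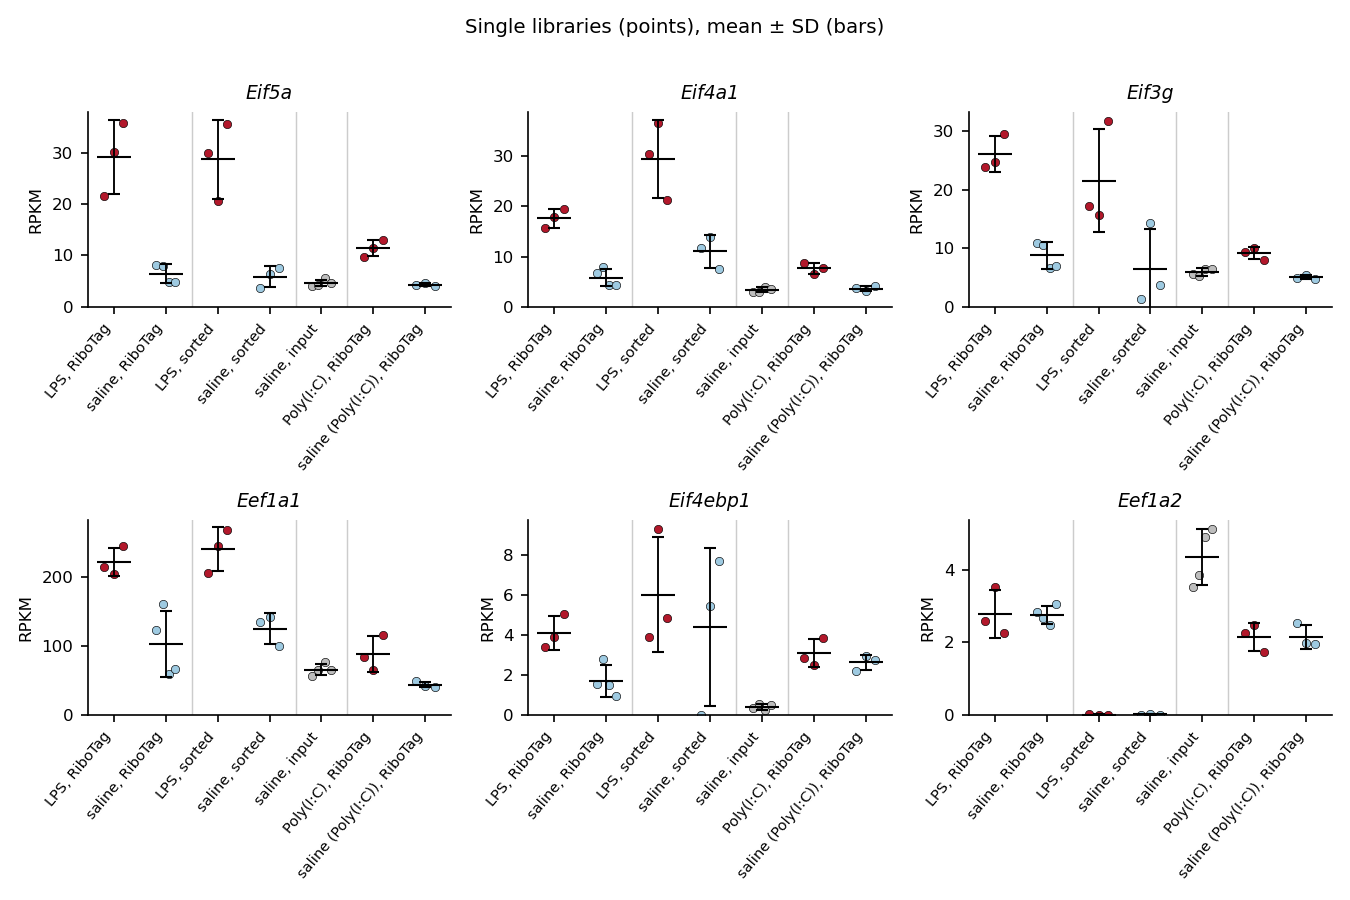
RPKM (y axis) of 6 factors in single libraries (points) of the LPS and Poly(I:C) studies, with the mean and SD of each group as bars, which are drawn down to 0 where the SD exceeds the mean. LPS libraries of Eif5a lie at 20.5 to 35.8 RPKM by both methods, above all saline libraries, while Eef1a2 is near 0 in sorted cells and highest in the input.

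After Poly(I:C), 15 of the 57 factors rose and none fell, with 6.5% of all genes called, 6.27% as higher. The median change was 0.27 over the family and -0.02 over all genes, and 27 factors had every Poly(I:C) library above every saline library, against 15.3% of all genes. The calls took in 7 of 14 eIF3 genes, 3 of 7 elongation genes, 2 of 11 for cap binding, helicase and scaffold, 2 of 3 of the eIF5A and eIF6 group and 1 of 13 for start codon selection. By limma 0 of 4 eIF2B genes and 0 of 4 cap-binding regulators passed, with 0 and 1 at an unadjusted p under 0.05.

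Eif5a again changed most, with 9.77, 11.5 and 12.98 RPKM after Poly(I:C), against 4.31, 4.58 and 4.07 after saline (1.21 ± 0.12, adjusted p = 0.000848). Eef1a1 had 83.5, 64.5 and 116 RPKM after Poly(I:C), against 48.6, 42.0 and 40.9 after saline (0.95 ± 0.22, adjusted p = 0.0437). Both genes showed no overlap, but the Poly(I:C) libraries of Eef1a1 were far apart and it was called under 6 of 12 alternatives. Eif4a1 had 8.67, 6.61 and 7.63 RPKM after Poly(I:C), against 3.70, 3.11 and 4.09 after saline (0.90 ± 0.13, adjusted p = 0.00491).

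Eif2s1 rose by 0.84 ± 0.11 (adjusted p = 0.00355), to 6.80, 7.25 and 8.30 RPKM after Poly(I:C), against 3.26, 3.95 and 3.93 after saline. Among eIF3 genes Eif3l changed by 0.82 ± 0.13, Eif3h by 0.77 ± 0.10, Eif3g by 0.75 ± 0.11 and Eif3k by 0.71 ± 0.11. Eif3h had 11.2, 10.7 and 10.5 RPKM after Poly(I:C), against 6.35, 5.76 and 5.61 after saline, the narrowest groups among these. At the lower end were Eif4a3, a helicase of the exon junction complex, at 0.65 ± 0.09, Eif3i at 0.62 ± 0.11, Eef1g at 0.66 ± 0.13, Eif3m at 0.55 ± 0.11, Eif6, which keeps the large ribosomal subunit from joining early, at 0.51 ± 0.09 and Eef1d at 0.40 ± 0.09.

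Eif2s3x did not pass, at 0.47 ± 0.11 (adjusted p = 0.0526). Eef2 had 0.35 ± 0.12 (0.169), Eif4e 0.28 ± 0.13 (0.385) and Eif4ebp1 0.16 ± 0.14 (0.725). Eif2s3y had -0.21 ± 0.31 (0.84) and Eif1ax 0.03 ± 0.15 (0.955). Eef1a2 averaged 2.15 ± 0.387 RPKM after Poly(I:C) and 2.15 ± 0.323 after saline. Ribosomal protein genes were higher for 64 of 80 with a median of 0.95. In the integrated stress response list 4 of 14 were higher, led by the double-stranded RNA kinase gene Eif2ak2 (PKR) at 9.39 ± 0.571 RPKM against 1.31 ± 0.0589 after saline (2.17 ± 0.09, adjusted p = 2.28e-05), with Shmt2 at 0.86 ± 0.12 and Phgdh at 0.64 ± 0.11. By limma 0 of 19 genes of mTORC1 and the cap kinases, 0 of 10 of termination and recycling, 0 of 10 of poly(A) binding, 0 of 6 hypusine and diphthamide enzymes and 0 of 6 mitochondrial factors passed. Those lists had 4, 4, 1, 1 and 1 genes at an unadjusted p under 0.05.

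Summed microglial markers were 594, 569 and 793 RPKM after Poly(I:C), against 305, 291 and 297 after saline, with no overlap, and 8 of 12 were called higher. None of these markers was at 0 in either group. The part of the higher microglial RNA in these changes was not tested. Without saline replicate 1, 2 or 3 the number of factors called was 9, 8 or 8, and without Poly(I:C) replicate 1 it was 9, whereas Eif5a, Eif4a1 and Eif3h were called under each of 12 alternatives.

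The factors higher after LPS and those higher after Poly(I:C) shared 12 genes, or 46.2% of the first and 80% of the second, against 33.4% and 66% when all genes called higher were counted. They were Eif5a, Eif4a1, Eif4a3, Eif2s1, Eef1d and Eef1g and the eIF3 genes Eif3c, Eif3g, Eif3i, Eif3k, Eif3l and Eif3m, and the studies had separate controls. Eef1a1, Eif3h and Eif6 were called after Poly(I:C) and not after LPS. The LPS effect minus the Poly(I:C) effect passed for 0 of 57 factors by limma and by limma voom, 18 had an unadjusted limma p under 0.05, and 0.194% of all genes were called. The median difference was 0.40 over the family and 0.13 over all genes. That difference was 0.80 ± 0.29 for Eif5a (adjusted p = 0.444), 0.79 ± 0.29 for Eif4ebp1 (0.445) and largest for Eef1e1, part of the multi-tRNA synthetase complex, at 1.005 ± 0.317 (0.363).

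With age many of the factors were higher in both sexes. At 24 against 3 months 27 of 57 factors were higher and 1 lower in females, with 20.1% of all genes called, 16.7% higher and 3.41% lower. In males 23 were higher and none lower, with 23.4% of all genes called, 17.2% higher. Median changes were 0.15 in females and 0.14 in males against 0.05 and 0.04 over all genes. In 24 factors every 24-month female library lay above every 3-month one, against 16% of all genes, and in males in 21, against 12.7%. Median-of-ratios scaling gave 23 higher and 3 lower in females and 18 higher and 5 lower in males.

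Eef1a1 had 97.5, 90.5, 95.8 and 84.7 RPKM in 24-month females, against 59.6, 64.6, 66.3, 63.4 and 62.6 in 3-month females (0.53 ± 0.06, adjusted p = 6.36e-07). In males it had 89.99, 81.7, 82.7 and 81.8 RPKM at 24 months, against 55.1, 59.0, 65.8, 62.5 and 54.1 at 3 months (0.50 ± 0.06, adjusted p = 1.35e-06). In both sexes the 2 ages did not overlap, and the 12-month libraries, at 64.6 to 79.6 RPKM in females and 67.3 to 76.4 in males, lay between them except for 1 female library. Eef2 had 56.1, 54.8, 55.3 and 53.2 RPKM in 24-month females, against 43.4, 40.0, 41.9, 43.0 and 42.8 at 3 months (0.37 ± 0.06, adjusted p = 7.66e-05). In males Eef2 averaged 49.7 ± 3.15 RPKM at 24 months and 40.0 ± 4.12 at 3 months (0.31 ± 0.06, adjusted p = 0.000471), again with no overlap. Its kinase gene Eef2k, whose protein switches eEF2 off, was higher in 24-month males at 3.33 ± 0.111 RPKM against 2.67 ± 0.146 at 3 months (0.24 ± 0.04, adjusted p = 0.000152), and not called in females.

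Eif4b, an eIF4A cofactor, had the smallest p of the family in both sexes. It stood at 18.4, 18.8, 18.3 and 17.6 RPKM in 24-month females, against 13.5, 14.1, 13.8, 13.6 and 14.0 in 3-month females (0.38 ± 0.04, adjusted p = 5.49e-08). Males had 17.1, 17.0, 18.8 and 17.4 RPKM at 24 months, against 12.8, 12.6, 13.5, 13.6 and 12.2 at 3 months (0.41 ± 0.04, adjusted p = 1.21e-08). Within each sex the ages did not overlap, and libraries of one age lay close together. Eif4a1 rose by 0.37 ± 0.05 in females and 0.27 ± 0.05 in males, and Eif4a3 by 0.29 ± 0.05 and 0.34 ± 0.05. At the low end of the calls in females stood Eif3a (0.22), Eef1d (0.21), Eif2a (0.20) and Eif4g1 (0.15), and in males Eif3i and Eif1a (0.21 each), Eif3c (0.20), Eef1d (0.19) and Eif3a (0.17). In females Eif4e3, Eif4h and Eif4e were called as well, Eif4e at 0.15 ± 0.05 (adjusted p = 0.0304) and under 8 of 16 alternatives. Eif4e in males had -0.01 ± 0.05 (adjusted p = 0.919).

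Of the 14 eIF3 genes 10 were higher at 24 months in females and 8 in males. Eif3h had 12.5, 12.8, 13.7 and 12.4 RPKM in 24-month females, against 8.82, 8.24, 8.41, 9.39 and 8.94 in 3-month females (0.51 ± 0.07, adjusted p = 4.25e-06). In males it averaged 12.3 ± 0.325 RPKM at 24 months and 9.09 ± 0.826 at 3 months (0.40 ± 0.07, adjusted p = 6.8e-05). Neither sex showed overlap between these ages. Eif3g changed by 0.48 ± 0.09 in females and 0.41 ± 0.09 in males, and Eif3f, whose start window holds the 15-base pyrimidine run, by 0.41 ± 0.06 and 0.33 ± 0.06. Eif3j1, Eif3j2, Eif3e and Eif3b were called in neither sex.

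Among other factors, Eif5a rose by 0.28 ± 0.07 in females (adjusted p = 0.00854) and 0.30 ± 0.07 in males (0.00419), and Eif2s3x by 0.23 ± 0.04 and 0.21 ± 0.04. The single factor lower with age was Eif5a2 in females, the second eIF5A gene, with 6.505, 6.44, 6.24 and 5.58 RPKM at 24 months, against 6.55, 7.25, 7.44, 6.73 and 6.98 at 3 months (-0.15 ± 0.05, adjusted p = 0.0453). The ages did not overlap but nearly met, and the call held under 7 of 16 alternatives. Eif4ebp1 had 3.53, 3.73, 4.02 and 3.15 RPKM in 24-month females, against 2.23, 2.72, 2.61, 2.36 and 2.20 at 3 months (0.43 ± 0.10, adjusted p = 0.00367), with no overlap. In males Eif4ebp1 overlapped between the ages at 0.12 ± 0.10 (adjusted p = 0.412). Of 4 eIF2B genes 0 passed in either sex by limma, and 0 had an unadjusted p under 0.05. Eif1ax had -0.13 ± 0.06 in females (adjusted p = 0.162) and -0.15 ± 0.06 in males (0.0976), and Eef1a2 0.06 ± 0.08 and 0.02 ± 0.08.

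The age effects of the sexes shared no control. Of the factors higher at 24 months 19 were called in both, or 70.4% of those in females and 82.6% of those in males, against 62.1% and 60.4% among all genes called higher. The effect in females minus that in males passed for 0 of 57 by limma and by limma voom, 8 had an unadjusted limma p under 0.05, and 0.0916% of all genes were called. The largest was the 4E-BP gene Eif4ebp2 at 0.35 ± 0.13 (adjusted p = 0.256). Eif4ebp1 had 0.30 ± 0.14 (0.383) and Eif4e 0.15 ± 0.07 (0.339).

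**Figure D3:**
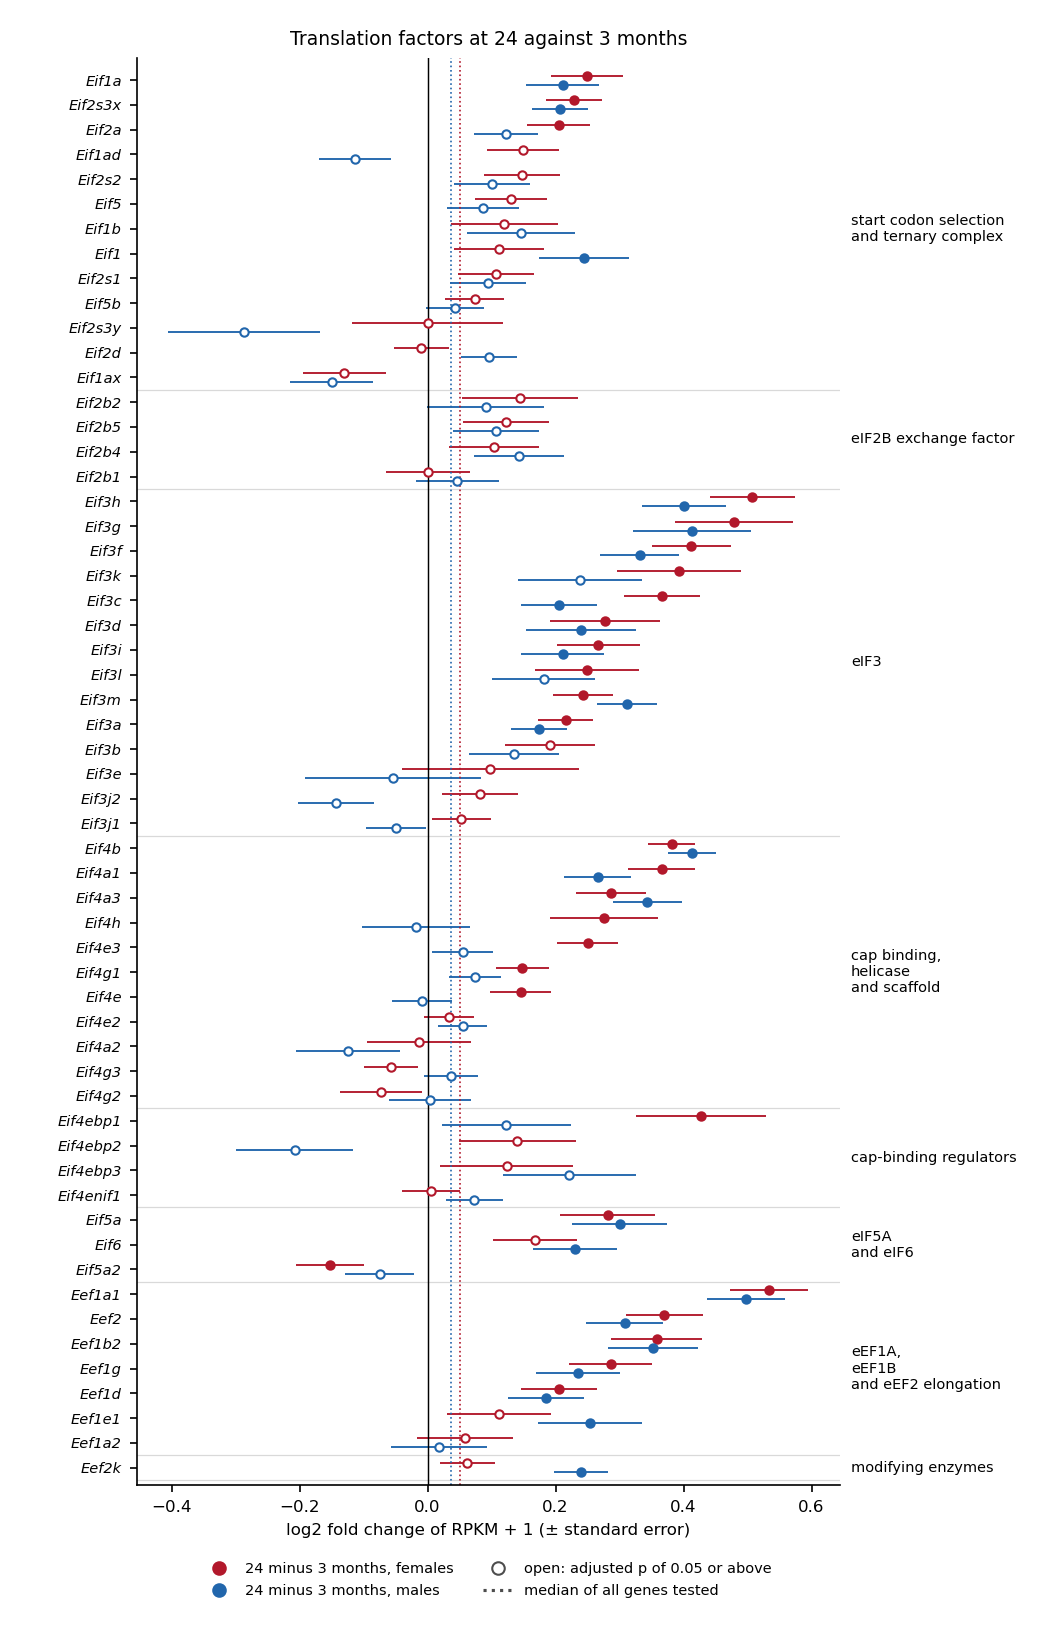
Log2 fold change of RPKM + 1 at 24 against 3 months (x axis, ± standard error) for each of the 57 factors, grouped by role, in females (red) and males (blue). Filled points had an adjusted p under 0.05, dotted lines mark the median of all genes, and Eef1a1 lies at 0.53 in females and 0.50 in males.

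At 12 against 3 months fewer factors were called. In females they were Eif4b at 0.15 ± 0.04 (adjusted p = 0.023), Eif4e3 at 0.17 ± 0.04 (0.0436) and Eif1ad at 0.19 ± 0.05 (0.0494), the last 2 called under 4 of 17 alternatives each, so 3 of 57, with 2.94% of all genes called, 2.56% as higher. This count was 0 to 9 with single libraries left out, at 1 without 3-month replicate 2 or 4 or 12-month replicate 1, 0 without 12-month replicate 2 and 9 without 12-month replicate 4. In males 12 of 57 were higher, with 13.9% of all genes called, 12.4% as higher. They were Eif3g at 0.36 ± 0.09, Eif4a3 at 0.29 ± 0.05, Eif5a and Eef1a1 at 0.26 each, Eif3f at 0.24 ± 0.06, Eef2k, Eef2 and Eif3i at 0.23 each, Eef1g, Eif4b and Eef1b2 at 0.22 each and Eif3h at 0.20 ± 0.07. Of these Eef1b2 was called under 3 of 15 alternatives and Eif3h under 5 of 16. Left out singly, 3-month replicates 2, 3 and 5 gave 7, 20 and 7 calls, and 12-month replicates 2 and 3 gave 6 and 5. Scaling gave 5 higher and 3 lower in males and 0 in females.

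**Figure D4:**
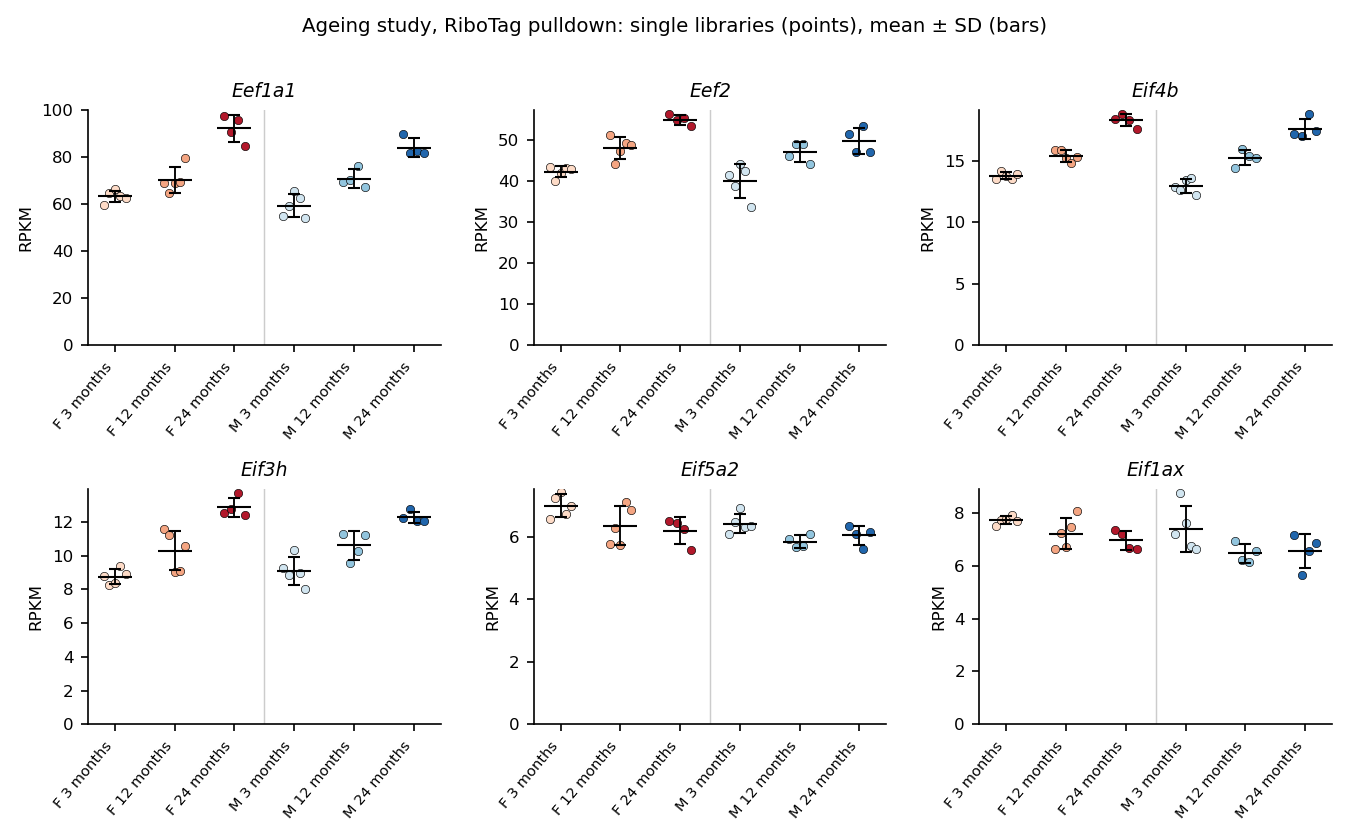
RPKM (y axis) of 6 factors in single pulldown libraries (points) of females and males at 3, 12 and 24 months, with mean and SD as bars. Eif4b reads 17.6 to 18.8 RPKM in 24-month females and 13.5 to 14.1 in 3-month females, while Eif5a2 reads 5.58 to 6.505 RPKM in 24-month and 6.55 to 7.44 in 3-month females.

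Ribosomal protein genes were higher at 24 months for 78 of 80 in females (median 0.46) and 73 of 80 in males (median 0.42). The integrated stress response list had 9 of 16 higher in females and 7 of 16 in males, among them Phgdh at 0.43 ± 0.05 and 0.41 ± 0.05 and Eif2ak2 at 0.39 ± 0.07 and 0.51 ± 0.07. Genes of mTORC1 and the cap kinases were higher for 5 and lower for 1 of 20 in females, including Lamtor3 at 0.39 ± 0.08, and higher for 6 of 20 in males, including the eIF4E kinase gene Mknk1 at 0.37 ± 0.06. Of 9 termination and recycling genes 1 was higher in each sex, Etf1 in females and Denr in males, and of 11 for poly(A) binding 2 in each, Pabpc1 and Paip2 in females and Cyfip1 and Ddx3x in males. Of 8 hypusine and diphthamide enzymes 0 passed in females by limma, while 3 had an unadjusted p below 0.05, and Dhps, which starts the hypusine modification of eIF5A, was higher in males at 0.23 ± 0.07 (adjusted p = 0.02). Of 6 mitochondrial factors 2 were higher in females and 1 in males. In the same libraries microglial markers summed to a median of 647, 705 and 920 RPKM in females and 557, 785 and 887 in males at 3, 12 and 24 months. At 24 months 5 of these 12 were higher in females and 11 of 12 in males, 7 of 8 oligodendrocyte markers were higher in females, and 6 of 12 neuronal markers were lower in males. The part of these shifts in the change of the translation factors was not tested.

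Females and males of the ageing study, averaged over the 3 ages, differed in 5 of 57 factors, 4 higher and 1 lower in females, with 2.99% of all genes called, 2.15% higher and 0.838% lower. The gamma subunit of eIF2, which carries the initiator tRNA, is encoded in mice by an X-linked gene, Eif2s3x (ENSMUSG00000035150, chromosome X, 94188707 to 94212862), and a Y-linked one, Eif2s3y (ENSMUSG00000069049, chromosome Y, 1010543 to 1028847). Their first 30 bases from the annotated start (chrX:94212622-94212651, minus strand, and chrY:1010595-1010624, plus strand) are shown because both genes differed by sex, with the longest stretch that the windows share, 12 bases, in capitals.
Eif2s3x: cttttctctccGAGCAAGATGGCtgggggt
Eif2s3y: acttccttctttcgtGAGCAAGATGGCggg

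Eif2s3y was read at most 5 times in a female library, at up to 0.0215 RPKM, and stood at 3.33 to 7.20 RPKM in males (-2.50 ± 0.07 on log2(RPKM + 1), adjusted p = 9.72e-20). Since females were at or near 0, that value depends on the added 1 RPKM. Eif2s3x averaged 6.29 ± 0.241, 6.89 ± 0.354 and 7.53 ± 0.156 RPKM in females at 3, 12 and 24 months. In males of these ages it averaged 4.00 ± 0.295, 4.30 ± 0.233 and 4.76 ± 0.214 RPKM (0.56 ± 0.03, adjusted p = 1.28e-14). The lowest female library, at 5.98 RPKM, lay above the highest male one at 4.97, and the call held under each of 33 alternatives. Eif2s3x was higher at 24 than at 3 months in both sexes, as given above, whereas Eif2s3y in males had -0.29 ± 0.12 at 24 against 3 months (adjusted p = 0.0818), which passed under 4 of 15 alternatives.

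Eif3e, an eIF3 subunit, averaged 7.35 ± 0.566, 8.03 ± 0.453 and 7.92 ± 0.248 RPKM in females at 3, 12 and 24 months. Males of these ages had 5.94 ± 1.55, 4.96 ± 0.491 and 5.78 ± 2.06 (0.45 ± 0.08, adjusted p = 0.00212). Most male libraries lay below all female ones, but replicate 2 at 3 months and replicate 1 at 24 months had 8.32 and 8.52 RPKM, within or above the female range. These 2 libraries were also the highest of their groups for Eif2s3y, at 7.20 and 6.41 RPKM. The eIF3 subunit genes Eif3j2 and Eif3j1 were higher in females by 0.22 ± 0.03 (adjusted p = 0.000502) and 0.10 ± 0.03 (0.0345). Eif1ax, X-linked as well, was not called at 0.09 ± 0.04 (0.222). Eef1a1, Eef2, Eif5a, Eif4e and Eif4ebp1 had differences of -0.02 to 0.08 and were not called, and of the poly(A) binding and initiation repressor list the X-linked helicase gene Ddx3x was higher at 0.44 ± 0.04 (2.85e-08).

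**Figure D5:**
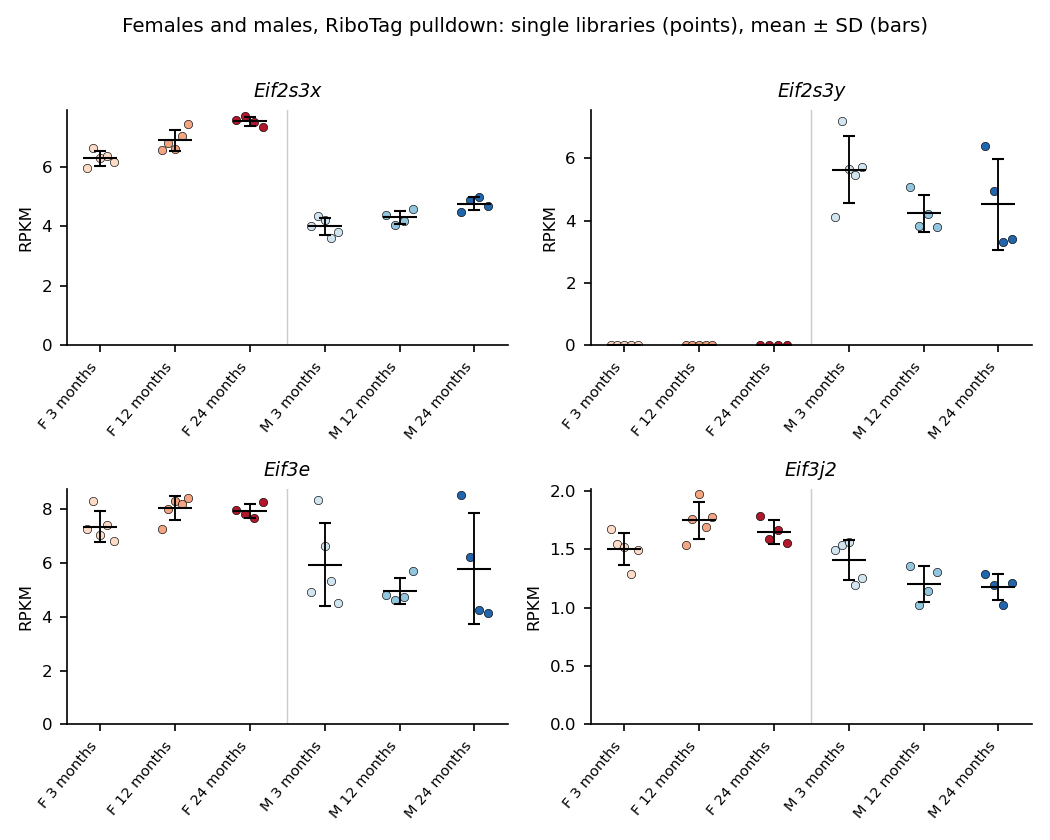
RPKM (y axis) of the 4 factors with the largest sex differences in single pulldown libraries (points) of females and males at 3, 12 and 24 months, with mean and SD as bars. Eif2s3x separates the sexes at every age, Eif2s3y is near 0 in females, and single male libraries of Eif3e reach 8.32 and 8.52 RPKM.

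In the amyloid and tau models the family was not called. For APP/PS1 against control mice 0 of 57 factors passed by limma, 8 had an unadjusted p under 0.05, limma voom called 1, and 1.31% of all genes were called. The smallest adjusted p was that of Eif4g2, with 86.7, 88.2, 88.3, 87.7 and 80.0 RPKM in APP/PS1 mice, against 98.1, 102, 96.8, 101 and 89.4 in controls (-0.17 ± 0.05, adjusted p = 0.0775). All 5 APP/PS1 libraries lay below all 5 controls. Eif1b, a paralogue of the scanning factor eIF1, had the largest change at -0.22 ± 0.06 (0.0817) and averaged 15.1 ± 1.12 RPKM in APP/PS1 mice and 17.8 ± 1.18 in controls. Eif4ebp1 had 0.22 ± 0.09 (0.222), Eef1a1 0.05 ± 0.05 (0.637), Eef2 0.07 ± 0.05 (0.473), Eif4e -0.04 ± 0.04 (0.666), Eif2s3x 0.04 ± 0.05 (0.732) and Eif5a 0.00 ± 0.05 (0.985). Without control replicate 2 or 7, 1 factor passed. Of the other lists, only Psat1 of 16 stress response genes was called, at 7.12 ± 0.738 RPKM in APP/PS1 mice and 5.37 ± 0.61 in controls (0.35 ± 0.08, adjusted p = 0.0485), and of 81 ribosomal protein genes 0 passed by limma, while 8 had an unadjusted p below 0.05. Microglial markers summed to a median of 1191 RPKM in APP/PS1 mice and 1099 in controls.

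For TauP301L against GFP 0 of 56 factors passed by limma, 4 had an unadjusted p under 0.05, limma voom called 0, and 1.25% of all genes were called. Eif1a, a scanning factor, changed most, with 5.57, 5.52, 6.66, 5.41 and 5.55 RPKM in TauP301L mice, against 5.22, 5.01, 4.99, 4.29 and 4.84 with GFP (0.20 ± 0.06, adjusted p = 0.132). The groups did not overlap. Eef1a2 averaged 1.83 ± 0.297 RPKM in TauP301L mice and 2.22 ± 0.185 with GFP (-0.19 ± 0.07, adjusted p = 0.223), beside neuronal markers with a median sum of 288 and 338 RPKM, of which 2 of 12 were lower. Eef1a1 had 0.15 ± 0.07 (0.34), Eef2 -0.08 ± 0.05 (0.518), Eif2s3x 0.09 ± 0.05 (0.373), Eif5a 0.03 ± 0.10 (0.907), Eif4ebp1 0.02 ± 0.15 (0.971) and Eif4e 0.01 ± 0.07 (0.952). Of the other lists, the stress factor gene Atf3 was higher, at 1.58 ± 0.312 against 0.483 ± 0.177 RPKM with GFP (0.80 ± 0.10, adjusted p = 0.00634), and Cyfip2, a partner of the repressor FMRP, was lower (-0.27 ± 0.06, 0.0492). Of 80 ribosomal protein genes 0 passed by limma, while 8 had an unadjusted p below 0.05.

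Under saline the pulldown was set against the input, to see which factors stood higher in the pulldown, which also held neuronal RNA. Of 56 factors 26 were higher and 3 lower, with 67.3% of all genes called, 56.8% higher and 10.5% lower, so the share of factors called higher was below that of all genes. Median-of-ratios scaling, which moved the median of all genes down to 0.02 from 0.41, called 9 factors as higher and 15 as lower, and the family then had a median of -0.09, not 0.36. Factors called higher with no overlap numbered 22, against 51.5% of all genes.

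Eif2s3y was the most enriched, at 18.8, 18.7, 21.2 and 31.3 RPKM in the pulldown, against 7.27, 6.49, 6.45 and 7.45 in the input (1.54 ± 0.17, adjusted p = 8.38e-05). Eif4g2 averaged 63.2 ± 17.4 RPKM on tagged ribosomes and 29.7 ± 2.14 in the input (1.02 ± 0.21, 0.00206), and 0.47 after scaling. Eif5b, which joins the ribosomal subunits, had 11.1, 10.7, 11.4 and 10.6 RPKM in the pulldown, against 5.47, 5.08, 5.62 and 5.47 in the input (0.90 ± 0.09, 6.02e-05). In each of these genes all pulldown libraries lay above all inputs. Also higher were Eif4ebp3 at 1.19 ± 0.15, which overlaps the stronger gene Ankhd1, Eef2k at 1.17 ± 0.13, Eif1ad at 1.11 ± 0.27 and Eif4ebp1 at 0.91 ± 0.19. The lowest changes called as higher included Eif4e2 at 0.34 ± 0.09, Eif4g3 at 0.42 ± 0.09 and Eif2b5 at 0.36 ± 0.10, the last of which turned to -0.02 after scaling and to -0.01 with limma voom. Eif1ax was lower, with 5.61, 6.21, 4.80 and 3.78 RPKM in the pulldown against 9.45, 11.5, 11.2 and 12.4 in the input (-1.005 ± 0.144, 0.000288), as were Eif5a2 at -0.52 ± 0.20 (0.0443, called under 7 of 15 alternatives) and Eef1a2 at -0.50 ± 0.12 (0.00416). Pulldown and input overlapped and the test was not passed in Eef1a1 (0.53 ± 0.30), Eef2 (0.31 ± 0.21), Eif5a (0.38 ± 0.17), Eif4e (-0.23 ± 0.14) and Eif2s3x (-0.16 ± 0.16).

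Against sorted cells, with the same saline pulldowns, 6 of 57 factors were higher and 2 lower in the pulldown, with 43.1% of all genes called, 30.3% higher and 12.9% lower. Eef1a2 averaged 2.76 ± 0.244 RPKM in the pulldown, where the neuronal markers summed to 182 to 264 RPKM, and 0.0101 ± 0.0128 in sorted cells, which read it at most 4 times per library (1.89 ± 0.15, adjusted p = 4.2e-05). Its part from neuronal RNA in the pulldown was not tested. Eif1ax at 1.92 ± 0.32, Eif2s3y at 1.90 ± 0.43, Eif5a2 at 1.71 ± 0.28, Eif2b5 at 1.17 ± 0.37 (called under 4 of 13 alternatives) and Eif5b at 0.86 ± 0.25 were higher, and Eif3b at -0.65 ± 0.21 and Eef1b2 at -1.08 ± 0.31 lower. Eef1a1 had -0.39 ± 0.39 (adjusted p = 0.475), Eif5a 0.14 ± 0.30 (0.751) and Eif4e 0.66 ± 0.30 (0.121). The number called was 4 without pulldown replicate 1 or 3, 5 without replicate 4 and 12 without sorted replicate 3, and scaling gave 5 higher and 8 lower. Of 81 ribosomal protein genes 20 were lower by pulldown than by sorting.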

How the data were processed

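RNA was measured by sequencing of RiboTag pulldowns, sorted cells and bulk input. RPKM values per gene were deposited by the authors in 1 table. Per the submitters' processing notes CASAVA, TopHat2 and featureCounts were used with mm10. Each deposited RPKM value, times coding length plus 1 base and scaled per library, was a whole read count within 0.01 read (100% of values). Precision follows depth, and the range of reads in genes per library is given above. Differences were tested on log2(RPKM + 1), computed from the deposited RPKM, with limma 3.58.1 in R 4.3.3 (trended variance, genes averaging 1 RPKM or more in the fitted libraries, Benjamini-Hochberg over all genes, called under 0.05). Comparisons of 2 groups were fitted on those groups alone, since sorted libraries varied more than pulldowns, and ageing as 1 fit of 6 groups. The methods were tested on simulated data. Replicates are separate libraries, and p-values measure the spread between them, 3 to 5 libraries per condition. The labels used here do not say whether a library came from a single animal or a pool. Same-numbered libraries were not treated as pairs, and in no comparison were all their correlations above 0.1. Low correlations do not show that libraries were unpaired. Pulldowns, sorted cells and inputs of the LPS study share numbers in their titles, and whether they came from the same animals was not tested. The rule for named genes took, per comparison, all called members up to 12, otherwise the 6 highest, the 6 lowest and the smallest p of each role, beside Eef1a1, Eef1a2, Eef2, Eif4e, Eif4ebp1, Eif5a, Eif1ax, Eif2s3x and Eif2s3y, and further members with their levels. Family and lists were chosen with earlier results of these data known. Alternatives were another pseudocount (0.1), no filter, a filter at 5 RPKM, median-of-ratios scaling, limma voom on the recovered reads, a replicate block, other groupings of libraries in the fit, and single libraries left out. Protein sequences were not used here. Promoter sequences came from RefSeq, GRCm38.p6, matched by symbol. Python 3.11.15, pandas 2.3.3, numpy 2.4.6 and matplotlib 3.10.9 were used.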

Additional observations from a re-analysis of the deposited data

Results flagged for a closer look

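A sample far from the rest of its group was found in 5 of 117 groups of values tested, and chance alone flags about 1 in 20 such groups. Groups of 3 libraries were not tested, that is the LPS pulldowns, the sorted cells and both groups of the Poly(I:C) study. Eef1a1 stood at 89.99 RPKM in replicate 1 of the 24-month males, against 81.7 to 82.7 in the other libraries of that group. Eef1a2 stood at 2.36 RPKM in TauP301L replicate 5, against 1.66 to 1.77 in the rest of that group, at 5.79 in APP/PS1 replicate 5, against 6.45 to 6.67, and at 7.51 in replicate 1 of the APP/PS1 controls, against 6.05 to 6.41. Eif2s3x stood at 3.18 RPKM in GFP replicate 3, against 3.54 to 3.67 in the other GFP libraries. No explanation of these values was tested.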

How the results depend on the processing

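Of 3312 values of named members recomputed under the alternatives, 3048 stayed on their side of the threshold, 220 lost the call, 42 gained one and 2 reversed a called change. Genes named in every comparison were counted whether called or not, so part of the 3048 were uncalled values that stayed uncalled. Among called values alone, the share that lost the call is therefore larger than 220 of 3312. Values of the 3048 that were not called could still change sign. Eif4ebp1 in the difference between methods ran from -1.59 to 1.12. Both reversals were Eif2b5 in the pulldown against input, at -0.0235 with scaling and -0.00645 with limma voom. With a filter at 5 RPKM, which tests fewer genes, the factors called numbered 9 in place of 29 for pulldown against input, 3 in place of 8 against sorted cells, 18 in place of 28 and 12 in place of 23 at 24 months in females and males, 7 in place of 12 at 12 months in males and 2 in place of 5 between the sexes, and 7 in place of 3 at 12 months in females, 2 in place of 0 after LPS in sorted cells and 2 in place of 0 in APP/PS1 mice. With no filter they were 16 in place of 26 after LPS, 7 in place of 12 at 12 months in males and 1 in place of 3 in females. Joint fits of the LPS study gave 10 for input, 3 after LPS in the pulldown and 16 in sorted cells. Fits of only the compared ages gave 3 at 12 months in males and 0 in females. Scaling gave 13 against sorted cells and 0 at 12 months in females, and limma voom gave 1 in APP/PS1 mice. Without saline pulldown replicates 3 and 4 together 17 were called after LPS. The cause of these differences was not tested.

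Leaving out single libraries gave 25 to 34 calls for input, 4 to 12 against sorted cells, 8 to 37 after LPS by pulldown, 0 in sorted cells, 0 to 1 for the difference between methods, 8 to 17 after Poly(I:C), 0 to 1 in APP/PS1 mice, 0 in TauP301L mice, 0 to 9 and 5 to 20 at 12 months in females and males, 23 to 29 and 19 to 26 at 24 months, and 4 to 5 between the sexes. The replicate number was not taken to pair libraries (correlations of -0.55 to -0.24 after LPS and -0.14 to 0.12 after Poly(I:C)), though such correlations cannot exclude pairing. With it as a replicate block, calls numbered 14 after LPS, 3 against sorted cells, 26 for input, 13 after Poly(I:C), 25 and 24 at 24 months in females and males, 10 and 2 at 12 months in males and females, 5 between the sexes and 0 for the rest. Depth limits factors near 1 RPKM, such as Eif2b4 and Eif3j2.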

Other observations

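Paralogues that encode the same activity differed in their proportions between groups. Eif4a1 and Eif4a2 encode the helicase eIF4A, and the ratio of Eif4a1 to Eif4a2 averaged 0.801 ± 0.230 in LPS pulldowns (SD, n = 3) and 0.208 ± 0.0753 in saline pulldowns (n = 4). In sorted cells it averaged 0.611 ± 0.0685 after LPS and 0.362 ± 0.0329 after saline, and in the Poly(I:C) study 0.405 ± 0.116 after Poly(I:C) and 0.172 ± 0.00754 after saline. In each of these pairs the groups did not overlap. At 3, 12 and 24 months it averaged 0.181, 0.189 and 0.255 in females and 0.190, 0.237 and 0.265 in males. For eIF5A the ratio of Eif5a to Eif5a2 averaged 7.85 ± 1.47 in LPS pulldowns and 1.40 ± 0.456 in saline pulldowns, and 2.20 ± 0.415 after Poly(I:C) and 0.753 ± 0.101 after its saline. In saline sorted cells it was 8.68 ± 5.47 (4.04 to 14.7, n = 3), a range that holds all the LPS pulldowns, and in LPS sorted cells no ratio was formed because Eif5a2 was at or under 0.05 RPKM in at least 1 library. The bulk input, where neuronal markers are high, had ratios of 0.116 ± 0.0105 for eIF4A and 0.641 ± 0.0832 for eIF5A. These are ratios of deposited levels, given as a description with no test, and the part of RNA from other cells in them was not tested.

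Of the 57 factors, 9 were called higher in all of LPS, Poly(I:C), 24-month females and 24-month males by pulldown, and they were Eif5a, Eif4a1, Eif4a3, Eef1d, Eef1g, Eif3c, Eif3g, Eif3i and Eif3m. Among the 12430 genes tested in all 4 comparisons 2.65% were called higher in each and 72% in none. Another 19 of the factors were called higher in none of these, among them the eIF4G-related scaffolds Eif4g2 and Eif4g3, the late-acting initiation factors Eif5 and Eif5b, the binding proteins Eif4ebp2, Eif4ebp3 and Eif4enif1, and the paralogues Eef1a2, Eif4a2 and Eif5a2. A missed call does not show that these genes stayed level.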
